A study of Homo sapiens with 21 samples.

Results

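BT-TPR2 and BT-TPR1 are cell pools derived from BT474, a human breast cancer line with an amplified ERBB2 gene, that are both resistant to trastuzumab plus pertuzumab, antibodies against the HER2 receptor that ERBB2 encodes. The comparison set all genes of BT-TPR2 against all genes of BT-TPR1, in 3 libraries of each, 6 of the 21 RNA-seq libraries of the study. The 37355 genes of the count table were all considered, and the 17650 that passed a filter on low counts were tested. Per the labels, both pools went without any antibody for the 7 days before harvest, and all groups share the BT474 background and the same medium. The other groups, with 3 libraries each, were the trastuzumab-resistant pools BT-TR2 and BT-TR1, BT474 cells given 10 µg/mL of each antibody or 10 µg/mL trastuzumab for 3 days, and untreated BT474. The study's design text calls the resistant lines pools, and there is 1 pool for each name, so a difference between BT-TPR2 and BT-TPR1 is a difference between 2 cell populations. The labels do not say whether the 3 libraries of a pool came from separate cultures, so p-values measure only the spread between libraries, which may be technical.

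HER2 is a receptor tyrosine kinase that pairs with EGFR, HER3 or HER4 and signals through the MAPK and PI3K pathways to drive growth. Trastuzumab and pertuzumab bind different parts of its extracellular domain, and pertuzumab blocks the pairing with HER3. BT474 is a luminal line that also makes estrogen and progesterone receptors, which are transcription factors of breast luminal cells. The progesterone receptor gene is itself an estrogen receptor target, and secretory proteins like those of apocrine sweat glands are known products of some breast tumours.

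Total counts were 17483736, 19559313 and 15880398 in BT-TPR2 and 16737677, 14122216 and 14960321 in BT-TPR1. Mitochondrially encoded transcripts took 14.3% to 20.8% of the counts in BT-TPR2 and 13.7% to 17.8% in BT-TPR1. Replicate 1 stood apart in both pools: across genes, its deviation from the pool mean correlated with GC content at r = 0.628 in BT-TPR2 and 0.595 in BT-TPR1, against values between -0.527 and -0.329 in the other 4 libraries, and genes are not independent replicates. Chi-square per degree of freedom between the libraries of a pool was 30.3 in BT-TPR2 and 18.1 in BT-TPR1, where counting error alone gives about 1. It is a mean over genes of raw counts scaled by library totals alone. Abundant genes can weigh most in it, so it is not the spread of a typical gene. Across 17554 genes the log2 fold change between the pools correlated with GC content at r = -0.073. The 9 luminal epithelial markers summed to 9406 to 14327 CPM (read counts divided by the TMM-normalized library size) in BT-TPR2 and 8596 to 11955 CPM in BT-TPR1. The amplified ERBB2 is 1 of them and alone had 5331 to 9278 CPM in BT-TPR2 and 4579.6 to 7176 CPM in BT-TPR1. These sums therefore depend strongly on that gene. All 5 immune markers in the table stayed under 1 CPM in both pools, as did 6 of 7 fibroblast markers, 4 of 7 basal markers and 4 of 5 endothelial markers. The basal markers summed to 7.96 to 9.81 CPM in BT-TPR2 and 5.98 to 9.19 CPM in BT-TPR1, with KRT17 at 0 in BT-TPR2 and ACTA2, KRT14 and KRT5 at 0 in BT-TPR1.

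The pools differed in the progesterone receptor gene, in secretory protein genes and in cytochrome P450 genes of the CYP1 family, while the HER receptor genes did not pass the test. Of the 17650 tested genes, 289 (1.64%) were higher and 320 (1.81%) lower in BT-TPR2 than in BT-TPR1 at an adjusted p under 0.05, together 609 (3.45%). The shares of 1.64% and 1.81% are the background for the counts of every gene list. Of these, 104 were at least 2-fold higher and 127 at least 2-fold lower. The libraries of the 2 pools did not overlap in 608 of the 609, against 3318 of all tested genes (18.8%). With the replicate number as a block, 1032 genes were higher (5.85%) and 1087 lower (6.16%), together 2119 (12.0%), and these included all 609. The median log2 fold change was 0.0015 over all tested genes, and protein-coding genes made up 551 of the 609 calls. The plot of all tested genes shows the calls on both sides at most levels. Without BT-TPR1 replicate 1 the calls numbered 351 (149 higher, 202 lower), without BT-TPR1 replicate 2 they numbered 364 (145 higher, 219 lower), without BT-TPR2 replicate 3 they numbered 371 (156 higher, 215 lower), and without BT-TPR2 replicate 2 the lower calls numbered 206. Without replicate 1 of every group, the replicate that stood apart, 726 genes were called (323 higher, 403 lower), 478 of them among the 609. With only the 6 libraries of these pools fitted, 76 genes were higher and 121 lower. Each pool differed from untreated BT474 in more genes, 5575 in BT-TPR2 (31.6%) and 4815 in BT-TPR1 (27.3%), in comparisons that share the untreated libraries.

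**Figure D1:**
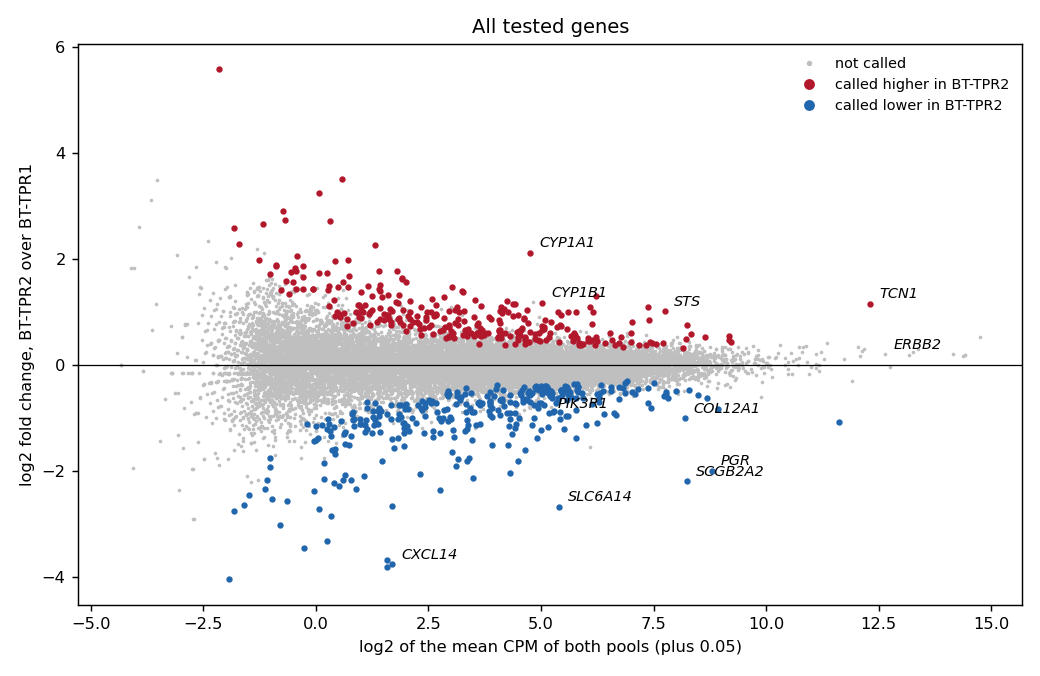
Each point is 1 of the 17650 tested genes, with the log2 of its mean CPM in both pools on the x axis and the log2 fold change, BT-TPR2 over BT-TPR1, on the y axis. Red points are the 289 genes called higher and blue points the 320 called lower; SLC6A14, SCGB2A2 and PGR lie far below 0 and CYP1A1 above it, while ERBB2 lies close to 0.

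The gene of the progesterone receptor was the most abundant of the genes with the largest falls. PGR (ENSG00000082175.14, chromosome 11, 101029624 to 101130524, minus strand, hg38) stood at 155, 196 and 183 CPM in BT-TPR2, against 663, 784 and 673 CPM in BT-TPR1 and 451, 540 and 573 CPM in untreated BT474. All 3 BT-TPR2 libraries lay below every BT-TPR1 and untreated library. Its log2 fold change, given here and below with its standard error, was -1.99 ± 0.17, adjusted p = 8.3e-07, edgeR's quasi-likelihood test with Benjamini-Hochberg adjustment. Against untreated BT474, PGR fell in BT-TPR2 (-1.55 ± 0.17, adjusted p = 1.59e-06), and its BT-TPR1 value was 0.44 ± 0.17, adjusted p = 0.0569. In bulk RNA, fewer cells with the transcript and less transcript per cell cannot be told apart. The base sequence just before the first listed of 3 PGR starts in RefSeq is shown, since PGR is a textbook estrogen target and carried the largest fall among the steroid receptor genes listed.
PGR: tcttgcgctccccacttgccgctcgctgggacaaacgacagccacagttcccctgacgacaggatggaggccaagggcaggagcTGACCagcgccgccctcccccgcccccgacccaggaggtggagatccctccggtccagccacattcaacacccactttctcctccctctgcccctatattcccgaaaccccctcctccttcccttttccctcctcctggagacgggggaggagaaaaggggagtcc
It covers chr11:101129078-101129327, minus strand of GRCh38.p14, as listed by RefSeq, and capitals mark TGACC, the other strand of GGTCA, the repeated unit of the estrogen response element, 166 bases before the start. GGTCA or TGACC stands in 32.65% of 35116 promoters of the same length, so the match is a description.

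Among other steroid receptor genes, NR3C1, which encodes the glucocorticoid receptor, was higher, with 23.3, 30.5 and 29.9 CPM in BT-TPR2, against 16.2, 18.9 and 18.6 CPM in BT-TPR1 (0.64 ± 0.17, adjusted p = 0.0386). ESR1, the estrogen receptor gene, had 40.8, 48.3 and 48.01 CPM in BT-TPR2, against 58.7, 57.9 and 55.7 CPM in BT-TPR1. The pools did not overlap in ESR1, but its difference missed the threshold (-0.33 ± 0.10, adjusted p = 0.0895) and passed with the replicate block (-0.33, adjusted p = 0.00521), in DESeq2 (0.0461), with the GC correction (0.0244) and with both correction and block (0.000914), over a range up to 0.538. GATA3 and FOXA1, transcription factors of luminal identity, did not pass, with 94.7 ± 4.72 CPM in BT-TPR2 and 81.01 ± 9.84 CPM in BT-TPR1 for GATA3 (0.22 ± 0.11, adjusted p = 0.386) and 324 ± 7.396 CPM in BT-TPR2 and 317 ± 11.7 CPM in BT-TPR1 for FOXA1 (0.031 ± 0.086, adjusted p = 0.93), with a sign that turned with scaling by total counts alone. Among 15 tested genes for steroid receptors and luminal factors, 1 was higher (NR3C1) and 2 lower, PGR among them, against background shares of 1.81% lower and 1.64% higher, and their median log2 fold change was -0.15. With the replicate block 2 were higher and 5 lower, against 5.85% and 6.16% of all tested genes, which adds ESR1 (-0.33, adjusted p = 0.00521), TRPS1 (-0.34, adjusted p = 0.00234), TBX3 (-0.30, adjusted p = 0.00838) and TFAP2C (0.27, adjusted p = 0.0171). NR3C1 no longer passed without BT-TPR2 replicate 2 or 3 or BT-TPR1 replicate 1 or 2 or 3 (adjusted p = 0.157, 0.15, 0.194, 0.104 and 0.0926), with scaling by total counts alone (0.182), in limma (0.0532) or with only the 2 pools fitted (0.104). For NR3C1 the adjusted p ranged from 1.21e-05 to 0.194 over all alternatives.

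The estrogen response list was mixed in direction. Of its 31 tested genes, 1 was higher and 3 were lower, against 1.64% of all tested genes higher and 1.81% lower, with a median log2 fold change of -0.12. Beside PGR, the falls were those of CXCL12 and GREB1. CXCL12, a chemokine that attracts cells with the receptor CXCR4, had 22.1, 20.9 and 22.6 CPM in BT-TPR2, against 49.2, 46.1 and 52.1 CPM in BT-TPR1 and 47.8, 51.04 and 53.1 CPM in untreated BT474 (-1.17 ± 0.097, adjusted p = 6.19e-07). Its BT-TPR1 libraries lay near the untreated ones, and BT-TPR2 lay below both. GREB1, an estrogen receptor cofactor, had 337, 260 and 270.2 CPM in BT-TPR2, against 477, 400.1 and 408 CPM in BT-TPR1 (-0.57 ± 0.11, adjusted p = 0.00427). EGR3, an immediate early transcription factor, had 4.01, 3.63 and 4.39 CPM in BT-TPR2, against 1.09, 1.51 and 0.897 CPM in BT-TPR1 and was higher (1.77 ± 0.26, adjusted p = 0.000321). With the replicate block 5 members were higher and 8 lower, against 5.85% and 6.16% of all tested genes, among them IGFBP4 (-0.56, adjusted p = 0.000427) and TFF3 (-0.64, adjusted p = 0.00207) below and CA12 (0.38, adjusted p = 0.00723) and STC2 (0.36, adjusted p = 0.0169) above. None of the 9 tested progestin response genes passed, with or without the block (median -0.11). GREB1 no longer passed with only the 2 pools fitted, at an adjusted p of 0.0944 (range 9.58e-07 to 0.0944).

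Genes of secretory and apocrine proteins were lower in BT-TPR2 where they passed. Of 18 tested members of that list, 5 were lower and 0 higher, against 1.64% of all tested genes higher and 1.81% lower. Of the 18, 15 had a negative log2 fold change, and the median was -0.42. With the replicate block 6 were lower, against 6.16% of all tested genes, TFF3 being added. SCGB2A2 (ENSG00000110484.6, chromosome 11, 62270155 to 62273156, plus strand) encodes mammaglobin-A, a secreted breast epithelial protein, and had 109, 102 and 116 CPM in BT-TPR2, against 472, 535 and 479 CPM in BT-TPR1 and 10.1, 11.5 and 8.89 CPM in untreated BT474. Every BT-TPR2 library lay below every BT-TPR1 library (-2.19 ± 0.14, adjusted p = 3.46e-08), yet both pools were above untreated BT474 (3.42 ± 0.15, adjusted p = 1.06e-11 in BT-TPR2 and 5.61 ± 0.16, adjusted p = 3.43e-14 in BT-TPR1). SCGB1D2, whose product lipophilin B forms a complex with mammaglobin, is the neighbour of SCGB2A2 among the tested genes. It had 11.9, 10.9 and 12.4 CPM in BT-TPR2, against 30.4, 26.4 and 29.7 CPM in BT-TPR1 and 9.07, 6.31 and 7.304 CPM in untreated BT474 and the same direction (-1.30 ± 0.17, adjusted p = 0.000121). The sequences before the starts of these neighbours are shown because the pair moved together.
SCGB2A2: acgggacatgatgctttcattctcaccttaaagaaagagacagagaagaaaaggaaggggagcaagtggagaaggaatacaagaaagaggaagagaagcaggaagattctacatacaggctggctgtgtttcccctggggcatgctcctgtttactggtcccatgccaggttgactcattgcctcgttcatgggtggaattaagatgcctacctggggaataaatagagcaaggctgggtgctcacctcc
SCGB1D2: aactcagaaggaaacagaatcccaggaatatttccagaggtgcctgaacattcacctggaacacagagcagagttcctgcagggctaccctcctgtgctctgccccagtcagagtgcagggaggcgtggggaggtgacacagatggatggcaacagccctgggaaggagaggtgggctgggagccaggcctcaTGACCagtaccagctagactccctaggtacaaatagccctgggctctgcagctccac
They cover chr11:62269908-62270157, plus strand and chr11:62241989-62242238, plus strand (GRCh38.p14, RefSeq). Searched for GGTCA and TGACC, the SCGB1D2 window held TGACC 57 bases before the start, in capitals, and the SCGB2A2 window held neither.

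PIP, the prolactin-induced protein of apocrine epithelium, lay at 2.33, 1.86 and 1.57 CPM in BT-TPR2, against 7.703, 7.11 and 8.97 CPM in BT-TPR1 and 5.604, 2.95 and 4.58 CPM in untreated BT474 (-2.04 ± 0.26, adjusted p = 8.3e-05). It fell in BT-TPR2 against untreated BT474 (-1.18 ± 0.26, adjusted p = 0.00216) and rose in BT-TPR1 (0.86 ± 0.24, adjusted p = 0.0119). AZGP1, a zinc-binding secreted glycoprotein, averaged 6.996 ± 0.79 CPM in BT-TPR2 and 12.9 ± 2.31 CPM in BT-TPR1 (-0.89 ± 0.20, adjusted p = 0.0144). KLK11, a secreted kallikrein protease, had 0.465, 0.093 and 0.251 CPM in BT-TPR2, against 2.18, 1.195 and 1.79 CPM in BT-TPR1 (-2.71 ± 0.38, adjusted p = 0.000211), levels near or under 1 CPM in BT-TPR2. Without BT-TPR2 replicate 1 its log2 fold change was -3.36, and in limma it was -1.45. Of the 13 tested androgen response genes, PIP and AZGP1 were lower and ABCC4 higher, a median of 0.037. Among mucin genes, MUC5AC, a gel-forming mucin, had 4.89, 3.67 and 3.45 CPM in BT-TPR2, against 13.7, 10.8 and 16.4 CPM in BT-TPR1 and 0.769, 0.155 and 0.363 CPM in untreated BT474 (-1.77 ± 0.28, adjusted p = 0.000724). Both pools lay above untreated BT474 in MUC5AC. MUC1, the membrane mucin of luminal cells, had 120.1, 72.5 and 92.4 CPM in BT-TPR2, against 51.5, 32.97 and 57.7 CPM in BT-TPR1 and was higher (1.00 ± 0.25, adjusted p = 0.0287). AZGP1 no longer passed without BT-TPR2 replicate 2 or BT-TPR1 replicate 3 (adjusted p = 0.0798 and 0.0928) or with only the 2 pools fitted (0.0581), over a range of 9.86e-05 to 0.0928. MUC1 no longer passed without BT-TPR2 replicate 1 or 3 or BT-TPR1 replicate 1 or 2 (adjusted p = 0.128, 0.0725, 0.0695 and 0.155) or with only the 2 pools fitted (0.108), over a range of 1.67e-08 to 0.155. ABCC4 no longer passed without BT-TPR2 replicate 1 or 2 or 3 or BT-TPR1 replicate 1 or 2 (adjusted p = 0.0707, 0.0606, 0.186, 0.177 and 0.179), with scaling by total counts alone (0.134), with only the 2 pools fitted (0.121) or with replicates 2 and 3 alone (0.0653). For ABCC4 the adjusted p ranged from 0.00176 to 0.186 over all alternatives.

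The CYP1 genes, xenobiotic-oxidizing enzymes induced through the aryl hydrocarbon receptor, were higher in BT-TPR2. CYP1A1 (ENSG00000140465.13, chromosome 15, 74719542 to 74725610, minus strand) had 53.7, 32.2 and 45.3 CPM in BT-TPR2, against 10.8, 8.05 and 11.3 CPM in BT-TPR1 and 5.77, 5.48 and 4.72 CPM in untreated BT474. All BT-TPR2 libraries lay above all BT-TPR1 libraries, which lay above the untreated ones (2.12 ± 0.17, adjusted p = 4.6e-07). CYP1B1, which also hydroxylates estradiol, had 44.6, 39.9 and 50.95 CPM in BT-TPR2, against 15.9, 20.3 and 23.7 CPM in BT-TPR1 and 14.8, 21.1 and 16.4 CPM in untreated BT474 (1.18 ± 0.19, adjusted p = 0.000846). Its BT-TPR1 value against untreated BT474 was 0.19 ± 0.19, adjusted p = 0.472. CYP1A2, the tested gene next to CYP1A1 on chromosome 15, lay low, at 1.45, 0.512 and 1.003 CPM in BT-TPR2, against 0.0575, 0.189 and 0.128 CPM in BT-TPR1 (2.91 ± 0.54, adjusted p = 0.00293). At that level its log2 fold change was 2.14 with replicates 2 and 3 alone, where its adjusted p was 0.0768, and 1.20 in limma, over a range of adjusted p from 1.11e-05. The receptor and its partners did not pass, with log2 fold changes of 0.12 for AHR, the ligand-bound receptor, 0.16 for its partner ARNT, -0.20 for its repressor AHRR and 0.031 for TIPARP, another target gene. Of the 8 tested genes of this pathway 3 were thus higher and 0 lower, without and with the replicate block, against 1.64% and 5.85% of all tested genes higher. The upstream windows of the neighbours CYP1A1 and CYP1A2 are shown with GCGTG, the core of the receptor's binding site, in capitals.
CYP1A1: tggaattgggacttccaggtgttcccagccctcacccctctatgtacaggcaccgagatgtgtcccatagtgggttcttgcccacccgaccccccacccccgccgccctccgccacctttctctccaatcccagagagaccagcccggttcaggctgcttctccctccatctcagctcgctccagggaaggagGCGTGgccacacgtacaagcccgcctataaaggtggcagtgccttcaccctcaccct
CYP1A2: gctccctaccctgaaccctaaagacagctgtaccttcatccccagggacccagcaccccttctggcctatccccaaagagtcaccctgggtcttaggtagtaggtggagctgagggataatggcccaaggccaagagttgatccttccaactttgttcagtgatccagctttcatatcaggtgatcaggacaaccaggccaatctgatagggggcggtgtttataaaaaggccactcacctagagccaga
They cover chr15:74725529-74725778, minus strand and chr15:74748595-74748844, plus strand (GRCh38.p14, RefSeq). GCGTG stands 57 bases before the CYP1A1 start, and the CYP1A2 window holds neither GCGTG nor CACGC; either stands in 32.22% of 35116 promoters of that length.

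The largest falls, among calls with a mean of at least 5 CPM and no overlap, were led by transporters. SLC6A14 (ENSG00000268104.2, chromosome X, 116436622 to 116461458, plus strand), a broad amino acid importer, had 10.5, 10.8 and 12.8 CPM in BT-TPR2, against 64.2, 72.3 and 80.3 CPM in BT-TPR1 and 63.4, 93.2 and 70.96 CPM in untreated BT474 (-2.66 ± 0.18, adjusted p = 3.46e-08). BT-TPR1 overlapped untreated BT474, and BT-TPR2 lay far below both. SLC13A3, a dicarboxylate transporter, had 2.73, 1.44 and 2.51 CPM in BT-TPR2, against 13.6, 9.12 and 10.96 CPM in BT-TPR1 (-2.35 ± 0.26, adjusted p = 1.45e-05). GFRA1, the co-receptor for the ligand GDNF, had 3.72, 3.396 and 3.698 CPM in BT-TPR2, against 14.4, 11.8 and 14.2 CPM in BT-TPR1 and 90.5, 85.8 and 80.3 CPM in untreated BT474 (-1.90 ± 0.14, adjusted p = 1.45e-07). Both pools lay below untreated BT474 in GFRA1, and BT-TPR2 lay lower. GUCY1A3, a subunit of the nitric oxide receptor guanylate cyclase, averaged 10.01 ± 1.84 CPM in BT-TPR2 and 35.1 ± 1.28 CPM in BT-TPR1 (-1.81 ± 0.20, adjusted p = 1.2e-05), and RP11-588K22.2, the adjacent tested gene, annotated on the same strand beyond its end, averaged 4.48 ± 0.762 CPM in BT-TPR2 and 15.8 ± 2.41 CPM in BT-TPR1 (-1.81 ± 0.14, adjusted p = 1.45e-07). CST1, a secreted cystatin protease inhibitor, averaged 7.79 ± 2.04 CPM in BT-TPR2 and 31.9 ± 5.94 CPM in BT-TPR1 (-2.04 ± 0.26, adjusted p = 8.3e-05), but reads can be shared with near-identical cystatins such as its called neighbour CST4 (-1.20). CYP2B7P, a pseudogene with close coding relatives, is uncertain in the same way and averaged 4.14 ± 0.567 CPM in BT-TPR2 and 18.1 ± 0.499 CPM in BT-TPR1 (-2.13 ± 0.17, adjusted p = 4.19e-07).

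Further large falls were COL5A2, a fibrillar collagen chain (-1.63), ENPP5, a membrane phosphodiesterase family member (-1.60), NAALADL2 (-1.51) and CTD-2566J3.1, an antisense transcript within RAD51B (-1.74). COL5A2 averaged 3.93 CPM in BT-TPR2 and 12.2 CPM in BT-TPR1, and ENPP5 12.5 CPM in BT-TPR2 and 37.7 CPM in BT-TPR1. Whether the counts used strand is not given in the sources used here, so antisense partners cannot be told apart from the genes they overlap. By whole gene spans, an annotated gene on the other strand overlapped 343 of the 609 calls. PGR, CYP1B1, SULF2, STOM and GYG2 are among them, so the same limit holds there. The share over all tested genes is not given here. No call among the 14 largest falls was lost under any alternative run.

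The largest rises covered several classes of protein. TCN1, which encodes the vitamin B12-binding protein haptocorrin, had 7443, 5610.4 and 7940 CPM in BT-TPR2, against 2843, 2942 and 3593 CPM in BT-TPR1 and 6515, 8677 and 6714 CPM in untreated BT474 (1.16 ± 0.15, adjusted p = 0.000134). BT-TPR2 overlapped untreated BT474 in TCN1 and BT-TPR1 lay below both. STOM, an integral membrane protein that regulates ion channels, had 113, 88.8 and 115 CPM in BT-TPR2, against 35.7, 43.5 and 49.8 CPM in BT-TPR1 and 116, 131 and 113 CPM in untreated BT474 (1.30 ± 0.15, adjusted p = 1.85e-05), again with the lower level in BT-TPR1. PCDH19, a protocadherin adhesion protein, had 14.5, 11.7 and 14.8 CPM in BT-TPR2, against 5.63, 5.29 and 4.55 CPM in BT-TPR1 and 34.8, 32.8 and 34.8 CPM in untreated BT474 (1.40 ± 0.17, adjusted p = 3.76e-05). Both pools lay below untreated BT474, and BT-TPR1 lay lower. GYG2, the glycogenin that primes glycogen, had 14.02, 14.2 and 13.5 CPM in BT-TPR2, against 5.23, 5.600 and 5.13 CPM in BT-TPR1 and 1.81, 1.603 and 1.18 CPM in untreated BT474 (1.38 ± 0.16, adjusted p = 1.85e-05), and ZNF516, a zinc finger protein, had 9.31, 7.86 and 8.02 CPM in BT-TPR2, against 3.91, 3.15 and 3.52 CPM in BT-TPR1 and 1.48, 1.03 and 0.907 CPM in untreated BT474 (1.25 ± 0.19, adjusted p = 0.000447). In these genes both pools lay above untreated BT474. ECM1, a secreted matrix protein, averaged 11.9 ± 3.54 CPM in BT-TPR2 and 4.26 ± 0.911 CPM in BT-TPR1 (1.48 ± 0.28, adjusted p = 0.00336). TNIK, a kinase of Wnt signalling, averaged 10.05 ± 1.95 CPM in BT-TPR2 and 4.14 ± 0.556 CPM in BT-TPR1 (1.28 ± 0.18, adjusted p = 0.000211).

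Of the remaining largest rises, B3GAT1 makes the carbohydrate epitope CD57 (1.22), SOCS2 restrains cytokine signalling (1.14), and ARMCX3 (1.16) and GRAMD2 (1.15) were also among them. SOCS2 averaged 8.59 CPM in BT-TPR2 and 3.91 CPM in BT-TPR1, and SOCS2-AS1 on the other strand was called in the same direction (1.14), so their reads may not be separable. ARMCX3 averaged 28.5 CPM in BT-TPR2 and 12.8 CPM in BT-TPR1, beside its called neighbour ARMCX6 (0.74). None of the 14 largest rises lost its call under an alternative. Among the 14 largest falls, the untreated mean lay between the pools in 6, above both in 4 and below both in 4, and was nearer to BT-TPR1 in 8. Among the 14 largest rises, it lay between the pools in 3, above both in 4 and below both in 7, and was nearer to BT-TPR1 in 10.

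**Figure D2:**
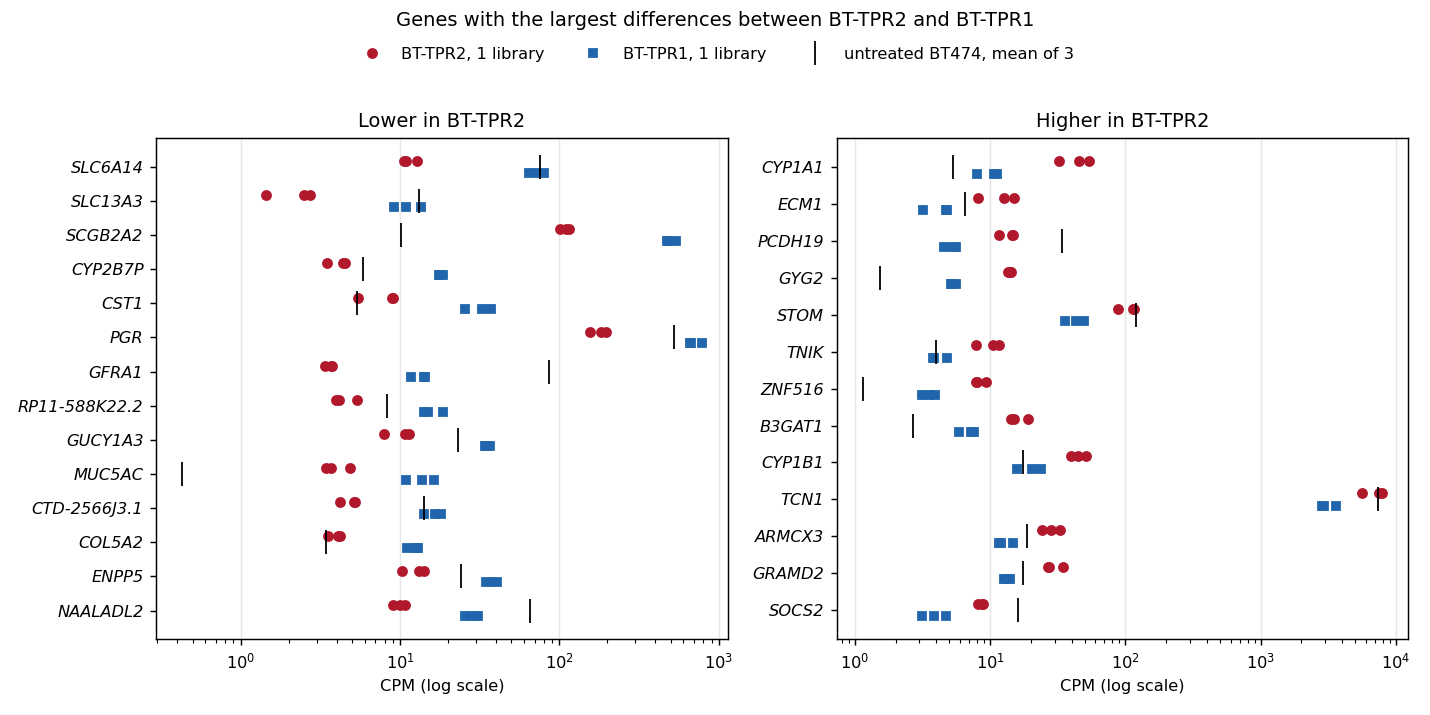
The 14 largest falls (left) and the largest rises described here (right) in BT-TPR2, with CPM on a log scale on the x axis: red circles are BT-TPR2 libraries, blue squares BT-TPR1 libraries and black lines the mean of 3 untreated BT474 libraries. The pools do not overlap in any gene shown, and the untreated mean falls on either side of them or between them, as in PGR, where it stands at 522 CPM.

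Set across all groups, SCGB2A2 averaged 109 ± 6.99 CPM in BT-TPR2, 495 ± 34.5 CPM in BT-TPR1, 1495 ± 159 CPM in BT-TR2, 1021 ± 72.01 CPM in BT-TR1, and at most 23.4 ± 3.56 CPM in the treated and untreated BT474 groups. BT-TPR2 thus had the lowest mean of the 4 pools. PGR averaged 204 ± 18.6 CPM in BT-TR2 and 193 ± 24.7 CPM in BT-TR1, near the 178 ± 21.2 CPM of BT-TPR2, whereas BT-TPR1 lay at 707 ± 67.1 CPM. TCN1 showed the other arrangement, with 3631 ± 240.2 CPM in BT-TR2 and 2877 ± 270.2 CPM in BT-TR1, close to BT-TPR1. CYP1A1 reached 88.2 ± 12.6 CPM in BT474 after both antibodies and 44.00 ± 4.702 CPM after trastuzumab, against 43.7 ± 10.8 CPM in BT-TPR2. The other pools were lower, with 16.4 ± 0.163 CPM in BT-TR2, 18.7 ± 1.63 CPM in BT-TR1 and 10.03 ± 1.73 CPM in BT-TPR1. SLC6A14 was lower in BT-TPR2 than in any other group mean, which ran 42.4 to 125 CPM. These levels across groups are a description, since the genes were chosen by the difference between BT-TPR2 and BT-TPR1.

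**Figure D3:**
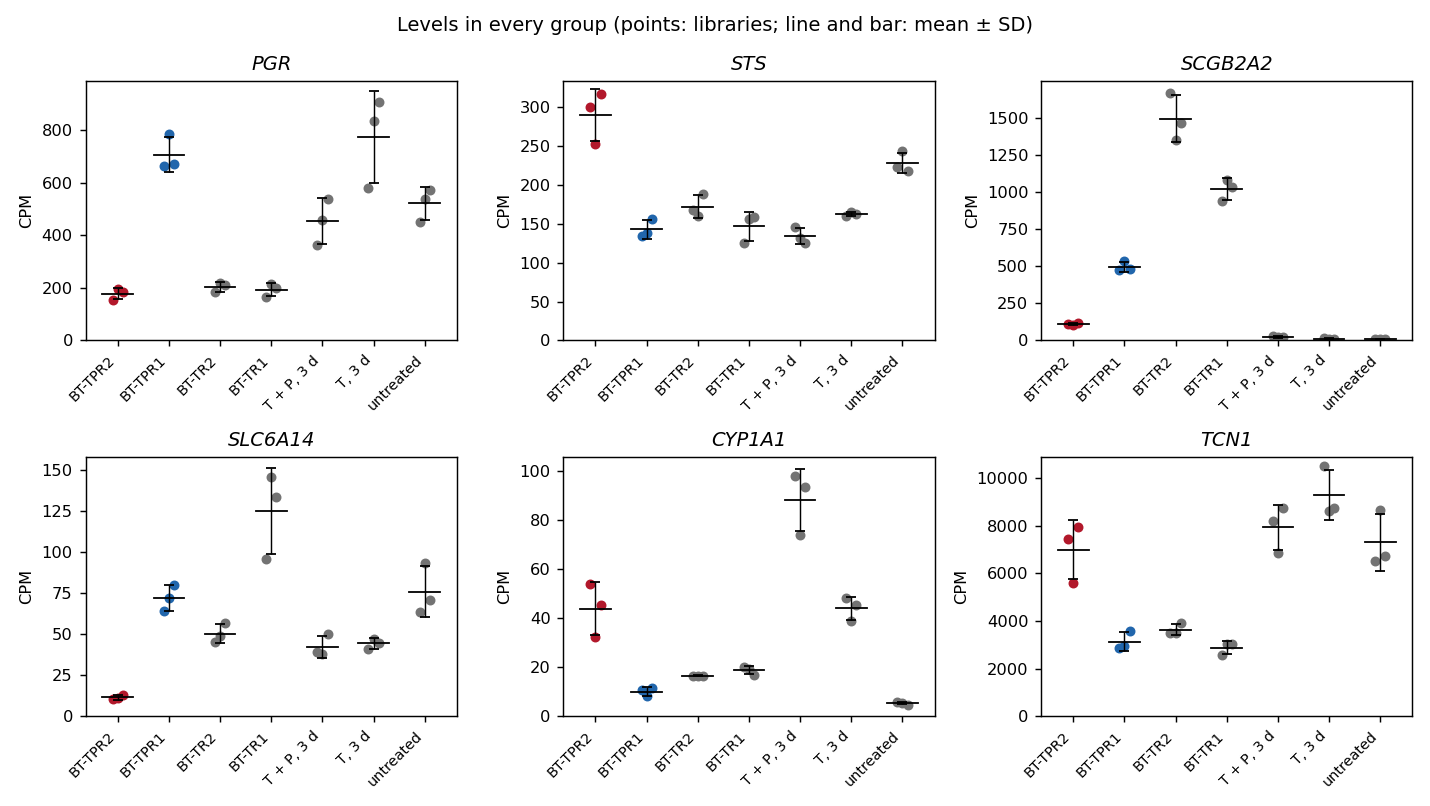
Levels in CPM of 6 genes in all 7 groups, 3 libraries each (points), with the mean and SD (line and bar); T is trastuzumab, P is pertuzumab and d is days. BT-TPR2 (red) has the lowest mean of the 7 groups in PGR and SLC6A14, and BT-TPR1 (blue) lies near the 2 trastuzumab-resistant pools in TCN1.

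No HER receptor gene passed the test between the pools. ERBB2 had 9278, 5331 and 5877 CPM in BT-TPR2, against 7176, 4579.6 and 6004 CPM in BT-TPR1 (0.21 ± 0.24, adjusted p = 0.796), with overlapping libraries and a sign that turned without BT-TPR2 replicate 1 (-0.076). EGFR had 105, 96.7 and 101 CPM in BT-TPR2, against 78.1, 64.2 and 94.00 CPM in BT-TPR1. Its libraries did not overlap, and its difference missed the threshold (0.36 ± 0.13, adjusted p = 0.164) but passed with the replicate block (0.36, adjusted p = 0.0326), with the GC correction and block (0.0257) and without BT-TPR1 replicate 3 (0.0492), over a range up to 0.546. ERBB3, the kinase-impaired partner of HER2, averaged 554 ± 90.6 CPM in BT-TPR2 and 487 ± 60.5 CPM in BT-TPR1 (0.18 ± 0.12, adjusted p = 0.545). ERBB4 averaged 14.5 ± 1.68 CPM in BT-TPR2 and 17.2 ± 1.27 CPM in BT-TPR1 (-0.25 ± 0.15, adjusted p = 0.502). PPP1R1B, a phosphatase regulator encoded beside ERBB2, averaged 79.2 ± 6.73 CPM in BT-TPR2 and 96.3 ± 3.93 CPM in BT-TPR1, against 2.26 CPM in untreated BT474, and did not pass between the pools (-0.28 ± 0.14, adjusted p = 0.358). Of 7 tested HER ligand genes 0 passed. With the block EGF (-0.92, adjusted p = 0.0322) and TGFA (-0.36, adjusted p = 0.017) were lower, against 6.16% of all tested genes. Among 16 tested genes of the chromosome 17 amplicon around ERBB2, 0 passed and 15 had a positive log2 fold change (median 0.20). With the replicate block 5 of them were higher, against 5.85% of all tested genes, namely PNMT (0.94, adjusted p = 0.000899), GSDMB (0.54, adjusted p = 0.00438), GRB7 (0.37, adjusted p = 0.0113), MIEN1 (0.35, adjusted p = 0.0118) and PSMD3 (0.34, adjusted p = 0.0147).

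Without the replicate block, the immediate early and MAPK target genes that passed were higher. EGR3, JUN and DUSP1 rose among 17 tested immediate early genes, and 0 fell, against 1.64% of all tested genes higher and 1.81% lower (median 0.25). JUN, a subunit of the AP-1 transcription factor, had 49.6, 40.05 and 43.5 CPM in BT-TPR2, against 29.8, 31.5 and 25.6 CPM in BT-TPR1 (0.61 ± 0.15, adjusted p = 0.0245), and DUSP1, a MAPK phosphatase, had 74.99, 56.1 and 61.2 CPM in BT-TPR2, against 45.7, 41.3 and 39.7 CPM in BT-TPR1 (0.60 ± 0.14, adjusted p = 0.0187). The replicate block gave 6 immediate early genes higher and 2 lower, against 5.85% and 6.16% of all tested genes. Among those added were EGR1 (1.22, adjusted p = 0.00443) and FOS (0.84, adjusted p = 0.0365) above, and MYC (-0.48, adjusted p = 0.00942) and KLF4 (-0.33, adjusted p = 0.0291) below. ETV5, an ETS factor induced by ERK signalling, had 14.4, 14.2 and 14.5 CPM in BT-TPR2, against 9.31, 9.94 and 8.91 CPM in BT-TPR1 (0.61 ± 0.12, adjusted p = 0.00434). It was called with EPHA4 (0.54) among 16 tested MAPK feedback and ETS target genes, where 0 were lower and the median was 0.24. JUN no longer passed without BT-TPR2 replicate 1 or 3 or BT-TPR1 replicate 1 or 2 or 3 (adjusted p = 0.101, 0.0678, 0.0838, 0.053 and 0.128), with scaling by total counts alone (0.123), with only the 2 pools fitted (0.0776) or with replicates 2 and 3 alone (0.0516). For JUN the adjusted p ranged from 0.00024 to 0.128 over all alternatives. DUSP1 no longer passed without BT-TPR2 replicate 1 or BT-TPR1 replicate 2 or 3 (adjusted p = 0.1, 0.0723 and 0.089) or with only the 2 pools fitted (0.088), over a range of 2.35e-06 to 0.1. ETV5 no longer passed with no filter (adjusted p = 0.0602) or with only the 2 pools fitted (0.072), over a range of 0.000148 to 0.072. EPHA4 no longer passed without BT-TPR2 replicate 1 or 3 or BT-TPR1 replicate 1 or 2 (adjusted p = 0.0778, 0.187, 0.172 and 0.135), with no filter (0.0863), with scaling by total counts alone (0.147), with only the 2 pools fitted (0.162) or with replicates 2 and 3 alone (0.0606). For EPHA4 the adjusted p ranged from 0.00145 to 0.187 over all alternatives.

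In the PI3K pathway single regulators differed. PIK3R1, the regulatory subunit p85-alpha of PI3-kinase, had 22.05, 25.02 and 28.01 CPM in BT-TPR2, against 46.6, 47.1 and 46.8 CPM in BT-TPR1 and 63.2, 70.6 and 60.9 CPM in untreated BT474 (-0.90 ± 0.12, adjusted p = 0.000148). It fell against untreated BT474 in BT-TPR2 (-1.38 ± 0.12, adjusted p = 1.24e-07) and in BT-TPR1 (-0.47 ± 0.12, adjusted p = 0.00682). INPP5D, a lipid phosphatase best known from blood cells, had 6.11, 4.56 and 4.58 CPM in BT-TPR2, against 2.64, 1.82 and 1.602 CPM in BT-TPR1 and 0.659, 0.465 and 0.635 CPM in untreated BT474 (1.32 ± 0.24, adjusted p = 0.00301), above untreated BT474 in both pools. DEPTOR, an inhibitor of the mTOR kinase, averaged 29.2 ± 4.03 CPM in BT-TPR2 and 41.9 ± 1.63 CPM in BT-TPR1 (-0.52 ± 0.13, adjusted p = 0.0292). These were the 1 higher and 2 lower of 23 tested genes (median -0.12). Of 26 tested genes that FOXO factors activate or PI3K represses, FBXO32, a ubiquitin ligase of muscle atrophy, fell with 18.8, 20.4 and 18.1 CPM in BT-TPR2, against 43.2, 46.6 and 44.6 CPM in BT-TPR1 (-1.23 ± 0.12, adjusted p = 3.59e-06). TXNIP, an inhibitor of thioredoxin and glucose uptake, averaged 182 ± 14.8 CPM in BT-TPR2 and 259 ± 18.1 CPM in BT-TPR1 and was lower (-0.51 ± 0.11, adjusted p = 0.00874), and C10orf10 was higher (0.87). DEPTOR no longer passed without BT-TPR2 replicate 1 or 3 or BT-TPR1 replicate 1 or 2 or 3 (adjusted p = 0.135, 0.105, 0.0866, 0.121 and 0.067), with no filter (0.0863), with scaling by total counts alone (0.114), with only the 2 pools fitted (0.125) or with replicates 2 and 3 alone (0.0571). For DEPTOR the adjusted p ranged from 0.000388 to 0.135 over all alternatives. TXNIP no longer passed without BT-TPR2 replicate 1 or BT-TPR1 replicate 3 (adjusted p = 0.0545 and 0.0591) or with only the 2 pools fitted (0.0758), over a range of 3.78e-06 to 0.0758. C10orf10 no longer passed without BT-TPR2 replicate 2 or BT-TPR1 replicate 2 or 3 (adjusted p = 0.0963, 0.0588 and 0.0922), with no filter (0.115), with scaling by total counts alone (0.0631) or with only the 2 pools fitted (0.152). For C10orf10 the adjusted p ranged from 0.00982 to 0.152 over all alternatives.

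Other receptor kinases, Wnt, Notch and TGF-beta genes moved both ways. Of 27 tested receptor tyrosine kinases outside the HER family, MERTK, a receptor for apoptotic-cell ligands, was lower (13.1 ± 1.72 CPM in BT-TPR2 and 24.5 ± 3.16 CPM in BT-TPR1, -0.91 ± 0.14, adjusted p = 0.000644), as was EPHA3 (-1.49), and EPHA4 was higher. LGR6, a receptor for R-spondins that strengthen Wnt signals, had 0.873, 0.744 and 1.003 CPM in BT-TPR2, against 7.13, 4.34 and 4.998 CPM in BT-TPR1 and 1.76, 1.45 and 1.63 CPM in untreated BT474 (-2.66 ± 0.24, adjusted p = 1.05e-06). BT-TPR2 lay below untreated BT474 in LGR6 and BT-TPR1 above it. LEF1, a transcription factor of the Wnt pathway, averaged 3.38 ± 0.639 CPM in BT-TPR2 and 8.64 ± 0.869 CPM in BT-TPR1 (-1.35 ± 0.20, adjusted p = 0.00039), and DKK1, a secreted Wnt inhibitor, averaged 7.82 ± 0.813 CPM in BT-TPR2 and 14.3 ± 0.0865 CPM in BT-TPR1 (-0.87 ± 0.15, adjusted p = 0.00143). Beside these 3 falls, 3 of the 23 tested genes were higher, led by the Wnt receptor FZD6 (0.73), and the median was -0.045. HEY2, a Notch target repressor, was lower (4.42 ± 0.488 CPM in BT-TPR2 and 9.197 ± 0.708 CPM in BT-TPR1, -1.05 ± 0.18, adjusted p = 0.00129), and HES1, another, was higher (60.2 ± 2.62 CPM in BT-TPR2 and 40.9 ± 4.01 CPM in BT-TPR1, 0.56 ± 0.12, adjusted p = 0.00843). MAML2, a Notch coactivator, also passed at levels of at most 1.13 CPM, at a log2 fold change of -2.33, against -0.873 in limma. In the TGF-beta and BMP list (24 tested), TGFB3 was lower (-0.63) and BAMBI, a decoy receptor, had 437, 308 and 397 CPM in BT-TPR2, against 237, 195 and 243 CPM in BT-TPR1 and was higher (0.76 ± 0.15, adjusted p = 0.00667) with the receptor gene BMPR1B (0.91). BAMBI no longer passed with only the 2 pools fitted, at an adjusted p of 0.0648 (range 3.52e-07 to 0.0648). EPHA3 no longer passed without BT-TPR1 replicate 1 (adjusted p = 0.0503) or with replicates 2 and 3 alone (0.067), over a range of 0.000611 to 0.067. FZD6 no longer passed without BT-TPR2 replicate 3 or BT-TPR1 replicate 1 or 2 (adjusted p = 0.0579, 0.054 and 0.061) or with only the 2 pools fitted (0.073), over a range of 3.43e-05 to 0.073. HES1 no longer passed without BT-TPR1 replicate 1 (adjusted p = 0.0708), with scaling by total counts alone (0.0631) or with only the 2 pools fitted (0.0701). For HES1 the adjusted p ranged from 0.000246 to 0.0708 over all alternatives. MAML2 no longer passed without BT-TPR2 replicate 1 or 2 or 3 or BT-TPR1 replicate 1 or 2 (adjusted p = 0.0698, 0.165, 0.0696, 0.0543 and 0.225), with scaling by total counts alone (0.0631) or in limma (0.0564). For MAML2 the adjusted p ranged from 0.00155 to 0.225 over all alternatives. TGFB3 no longer passed without BT-TPR2 replicate 2 or BT-TPR1 replicate 3 (adjusted p = 0.0707 and 0.0711) or with only the 2 pools fitted (0.0705), over a range of 0.000143 to 0.0711. BMPR1B no longer passed without BT-TPR1 replicate 1 (adjusted p = 0.0726), with no filter (0.0803), with only the 2 pools fitted (0.0824) or with replicates 2 and 3 alone (0.0729). For BMPR1B the adjusted p ranged from 0.00325 to 0.0824 over all alternatives.

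Among cell cycle genes, the mitotic ones that passed were higher and share a chromosome. MKI67, a proliferation marker, averaged 135 ± 18.1 CPM in BT-TPR2 and 133 ± 17.4 CPM in BT-TPR1 (0.03 ± 0.21, adjusted p = 0.971), and its sign turned under 6 alternatives. Of 36 tested mitosis genes, 4 were higher and 0 lower, against 1.64% of all tested genes higher and 1.81% lower. Of the list, 31 had a positive log2 fold change, and the median was 0.12. The 4 were NUSAP1, a spindle protein (54.7 ± 8.13 CPM in BT-TPR2 and 32.7 ± 4.66 CPM in BT-TPR1, 0.74 ± 0.17, adjusted p = 0.0161), CCNB2, a mitotic cyclin (0.43), KIF23, a cytokinesis motor (0.43), and PRC1, a midzone microtubule bundler (0.38). All 4 lie on chromosome 15, which holds 5 of the 36, the fifth being BUB1B. The chromosome 15 members had a median of 0.43, and the other 31 a median of 0.11 with 0 calls. Under the replicate block 4 others passed, UBE2C, NEK2, RACGAP1 and AURKA, with values between 0.27 and 0.39. The block thus gave 8 of the 36 higher, against 5.85% of all tested genes. Of 40 tested DNA replication genes 0 passed (median 0.0035). With the block 3 were lower, UHRF1 and MCM7 among them, against 6.16% of all tested genes. CDK6, a G1 kinase, was lower (5.304 ± 0.582 CPM in BT-TPR2 and 10.4 ± 0.845 CPM in BT-TPR1, -0.97 ± 0.19, adjusted p = 0.00492), 1 of 16 tested G1 cyclin and CDK genes. NUSAP1 no longer passed without BT-TPR2 replicate 2 or 3 or BT-TPR1 replicate 1 (adjusted p = 0.0741, 0.0884 and 0.124), with scaling by total counts alone (0.118) or with only the 2 pools fitted (0.0776). For NUSAP1 the adjusted p ranged from 2.8e-08 to 0.124 over all alternatives. CCNB2 no longer passed without BT-TPR2 replicate 3 or BT-TPR1 replicate 2 or 3 (adjusted p = 0.0967, 0.0608 and 0.0735), with no filter (0.171), with scaling by total counts alone (0.148) or with only the 2 pools fitted (0.173). For CCNB2 the adjusted p ranged from 0.000512 to 0.173 over all alternatives. KIF23 no longer passed without BT-TPR2 replicate 2 or 3 or BT-TPR1 replicate 1 or 2 (adjusted p = 0.0891, 0.125, 0.161 and 0.0768), with no filter (0.152), with scaling by total counts alone (0.218) or with only the 2 pools fitted (0.164). For KIF23 the adjusted p ranged from 9.42e-05 to 0.218 over all alternatives. PRC1 no longer passed without BT-TPR2 replicate 2 or 3 or BT-TPR1 replicate 1 or 2 (adjusted p = 0.0907, 0.134, 0.187 and 0.0904), with no filter (0.222), with scaling by total counts alone (0.231) or with only the 2 pools fitted (0.2). For PRC1 the adjusted p ranged from 0.00229 to 0.231 over all alternatives.

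Efflux transporters were higher where they passed. Of 18 tested ABC transporter genes, 4 were higher and 0 lower, against 1.64% of all tested genes higher and 1.81% lower (median 0.14). ABCC11, which exports lipophilic anions in apocrine glands, had 272, 188 and 216 CPM in BT-TPR2, against 112, 83.2 and 119 CPM in BT-TPR1 and 153, 133 and 133 CPM in untreated BT474 (1.10 ± 0.15, adjusted p = 0.000215). ABCC12, its neighbour in the ABCC family on chromosome 16, had 21.3, 13.8 and 16.8 CPM in BT-TPR2, against 9.14, 6.35 and 8.46 CPM in BT-TPR1 (1.11 ± 0.18, adjusted p = 0.000942). Both lay above untreated BT474 in BT-TPR2 (0.69 ± 0.15, adjusted p = 0.00218 for ABCC11 and 0.86 ± 0.18, adjusted p = 0.00116 for ABCC12). ABCA12, a lipid transporter, averaged 58.99 ± 7.82 CPM in BT-TPR2 and 36.9 ± 3.57 CPM in BT-TPR1 (0.68 ± 0.14, adjusted p = 0.00886). Among 25 tested amino acid and zinc transporters, SLC7A8, an exchanger of neutral amino acids, was higher (88.1 ± 11.3 CPM in BT-TPR2 and 51.4 ± 3.597 CPM in BT-TPR1, 0.78 ± 0.17, adjusted p = 0.0108), with SLC1A1, a glutamate importer (0.66), while SLC6A14 and the taurine importer SLC6A6 (-0.69) were lower. SLC6A6 no longer passed with only the 2 pools fitted, at an adjusted p of 0.0727 (range 9.28e-06 to 0.0727). ABCA12 no longer passed without BT-TPR1 replicate 2 (adjusted p = 0.0652) or with only the 2 pools fitted (0.0648), over a range of 0.000313 to 0.0652. SLC7A8 no longer passed without BT-TPR2 replicate 1 or BT-TPR1 replicate 2 (adjusted p = 0.0554 and 0.0588), over a range of 3.7e-07 to 0.0588. SLC1A1 no longer passed without BT-TPR2 replicate 1 or 3 or BT-TPR1 replicate 1 or 2 (adjusted p = 0.0689, 0.123, 0.16 and 0.0694), with only the 2 pools fitted (0.117) or with replicates 2 and 3 alone (0.0769). For SLC1A1 the adjusted p ranged from 0.00315 to 0.16 over all alternatives.

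Among enzymes of drug and steroid metabolism, STS and CYP4F8 were higher and GSTM3 lower, of 22 tested (median 0.19). STS, steroid sulfatase, releases estrone and other steroids from their sulfates and had 299.7, 253 and 317 CPM in BT-TPR2, against 134, 138 and 156 CPM in BT-TPR1 and 222, 243 and 218 CPM in untreated BT474 (1.02 ± 0.11, adjusted p = 1.37e-05). It rose in BT-TPR2 against untreated BT474 (0.35 ± 0.11, adjusted p = 0.0223) and fell in BT-TPR1 (-0.67 ± 0.11, adjusted p = 0.000194). CYP4F8, a fatty acid hydroxylase, averaged 11.3 ± 3.09 CPM in BT-TPR2 and 5.49 ± 0.896 CPM in BT-TPR1 (1.03 ± 0.21, adjusted p = 0.00667), and GSTM3, a glutathione transferase, averaged 5.36 ± 1.02 CPM in BT-TPR2 and 9.49 ± 0.371 CPM in BT-TPR1 (-0.83 ± 0.15, adjusted p = 0.00264). LDHB, a lactate dehydrogenase subunit, had 17.9, 18.6 and 21.4 CPM in BT-TPR2, against 38.6, 37.6 and 38.5 CPM in BT-TPR1 (-0.99 ± 0.10, adjusted p = 5.98e-06) and was the single call of 22 tested glycolysis genes. None of the 25 cholesterol and 22 fatty acid synthesis genes passed, with medians of 0.047 and 0.088. With the block 2 of each were higher, against 5.85% of all tested genes. CYP4F8 and GSTM3 no longer passed with only the 2 pools fitted, at adjusted p values of 0.0824 for CYP4F8 (range 9.32e-06 to 0.0824) and 0.0719 for GSTM3 (range 2.08e-05 to 0.0719).

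Matrix and adhesion genes included some of the abundant falls. COL12A1, a collagen of the fibril surface, had 203, 178 and 206 CPM in BT-TPR2, against 384, 371 and 413 CPM in BT-TPR1 and 881, 1075 and 899 CPM in untreated BT474 (-0.99 ± 0.14, adjusted p = 0.000225). Both pools lay below untreated BT474, BT-TPR2 lower than BT-TPR1. COL6A3 (-1.40) and ITGB6, an epithelial integrin (-0.56), were lower too, in all 3 lower and 1 higher of 31 tested genes in the list of collagens, laminins and integrins (median 0.028). That list is partial and leaves out COL5A2, which was also called lower (-1.63). CDH3, P-cadherin, had 84.4, 48.7 and 59.8 CPM in BT-TPR2, against 34.03, 25.7 and 36.1 CPM in BT-TPR1 (1.01 ± 0.20, adjusted p = 0.0045) and GRHL1, an epithelial transcription factor, 122, 126 and 140.1 CPM in BT-TPR2, against 91.2, 92.2 and 85.9 CPM in BT-TPR1 (0.53 ± 0.084, adjusted p = 0.000916), the 2 calls of 26 tested epithelial identity genes. Of 15 tested mesenchymal genes, TWIST1, an inducer of epithelial-mesenchymal transition, was lower (4.94 ± 0.462 CPM in BT-TPR2 and 11.6 ± 1.097 CPM in BT-TPR1, -1.22 ± 0.22, adjusted p = 0.00226). CDH11, a mesenchymal cadherin (4.72 ± 0.93 CPM in BT-TPR2 and 2.07 ± 0.205 CPM in BT-TPR1, 1.19 ± 0.21, adjusted p = 0.00215), and TGFBI, a secreted matrix protein (8.29 ± 1.55 CPM in BT-TPR2 and 4.29 ± 0.774 CPM in BT-TPR1, 0.95 ± 0.17, adjusted p = 0.00242), were higher. Calls went both ways in neuronal adhesion and synapse genes, 2 higher and 4 lower of 30 tested, with the axon guidance receptor ROBO1 higher (0.62) and the GABA receptor subunit gene GABRE lower (-1.25). COL6A3, CDH3 and TGFBI no longer passed with only the 2 pools fitted, at adjusted p values of 0.0691 for COL6A3 (range 1.57e-05 to 0.0691), 0.076 for CDH3 (range 1.44e-07 to 0.076) and 0.0803 for TGFBI (range 1.15e-05 to 0.0803). ITGB6 no longer passed without BT-TPR2 replicate 1 or 2 or 3 or BT-TPR1 replicate 1 or 2 or 3 (adjusted p = 0.0888, 0.177, 0.0723, 0.0713, 0.125 and 0.153), with no filter (0.0625) or with only the 2 pools fitted (0.0865). For ITGB6 the adjusted p ranged from 0.0024 to 0.177 over all alternatives. GRHL1 no longer passed with scaling by total counts alone (adjusted p = 0.0652) or with only the 2 pools fitted (0.0613), over a range of 2.74e-08 to 0.0652. ROBO1 no longer passed without BT-TPR2 replicate 3 or BT-TPR1 replicate 1 or 2 (adjusted p = 0.0897, 0.0566 and 0.0853) or with only the 2 pools fitted (0.125), over a range of 0.00163 to 0.125.

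Of 12 tested NF-kB target and inflammation genes, 1 was higher and 1 lower, against 1.64% and 1.81% of all tested genes. CXCL14, a chemokine of epithelial tissues, had 0.524, 0.465 and 0.313 CPM in BT-TPR2, against 7.01, 5.66 and 5.19 CPM in BT-TPR1 and 32.6, 32.5 and 26.04 CPM in untreated BT474 (-3.75 ± 0.34, adjusted p = 1.54e-06), and in limma its log2 fold change was -2.56. It fell in both pools against untreated BT474, further in BT-TPR2 (-6.09 ± 0.33, adjusted p = 1.31e-10) than in BT-TPR1 (-2.35 ± 0.25, adjusted p = 1.39e-06). TNFAIP2, an NF-kB target, was higher (9.31 ± 0.354 CPM in BT-TPR2 and 4.97 ± 1.53 CPM in BT-TPR1, 0.90 ± 0.19, adjusted p = 0.01). Of 31 tested interferon-stimulated genes, 3 were lower and 0 higher, against 1.64% of all tested genes higher and 1.81% lower, with a median of -0.028. They were MX2, an antiviral GTPase (39.9, 36.9 and 44.4 CPM in BT-TPR2, against 57.03, 53.7 and 55.4 CPM in BT-TPR1, -0.46 ± 0.088, adjusted p = 0.00447), and the head-to-head neighbours DTX3L (-0.71) and PARP9 (-0.47), which overlap on opposite strands. Under the replicate block the list had 4 higher and 4 lower, against 5.85% and 6.16% of all tested genes, IFI6 (0.89, adjusted p = 0.0317) being among the higher ones. None of the 10 tested MHC class I and 4 class II genes passed, and HLA-C was higher with the block (0.38, adjusted p = 0.0284). TNFAIP2 no longer passed without BT-TPR1 replicate 2 or 3 (adjusted p = 0.076 and 0.0633) or with only the 2 pools fitted (0.111), over a range of 0.000127 to 0.111. MX2 no longer passed with no filter (adjusted p = 0.165) or with only the 2 pools fitted (0.108), over a range of 5.22e-06 to 0.165. DTX3L no longer passed without BT-TPR2 replicate 1 or BT-TPR1 replicate 2 (adjusted p = 0.0527 and 0.0681), with scaling by total counts alone (0.053) or with only the 2 pools fitted (0.0523). For DTX3L the adjusted p ranged from 1.42e-06 to 0.0681 over all alternatives. PARP9 no longer passed without BT-TPR2 replicate 1 or 2 or 3 or BT-TPR1 replicate 1 or 2 or 3 (adjusted p = 0.135, 0.141, 0.105, 0.0612, 0.16 and 0.193), with no filter (0.219), with RLE scaling (0.0566), with scaling by total counts alone (0.148), in limma (0.0612) or with only the 2 pools fitted (0.151). For PARP9 the adjusted p ranged from 0.00038 to 0.219 over all alternatives.

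**Figure D4:**
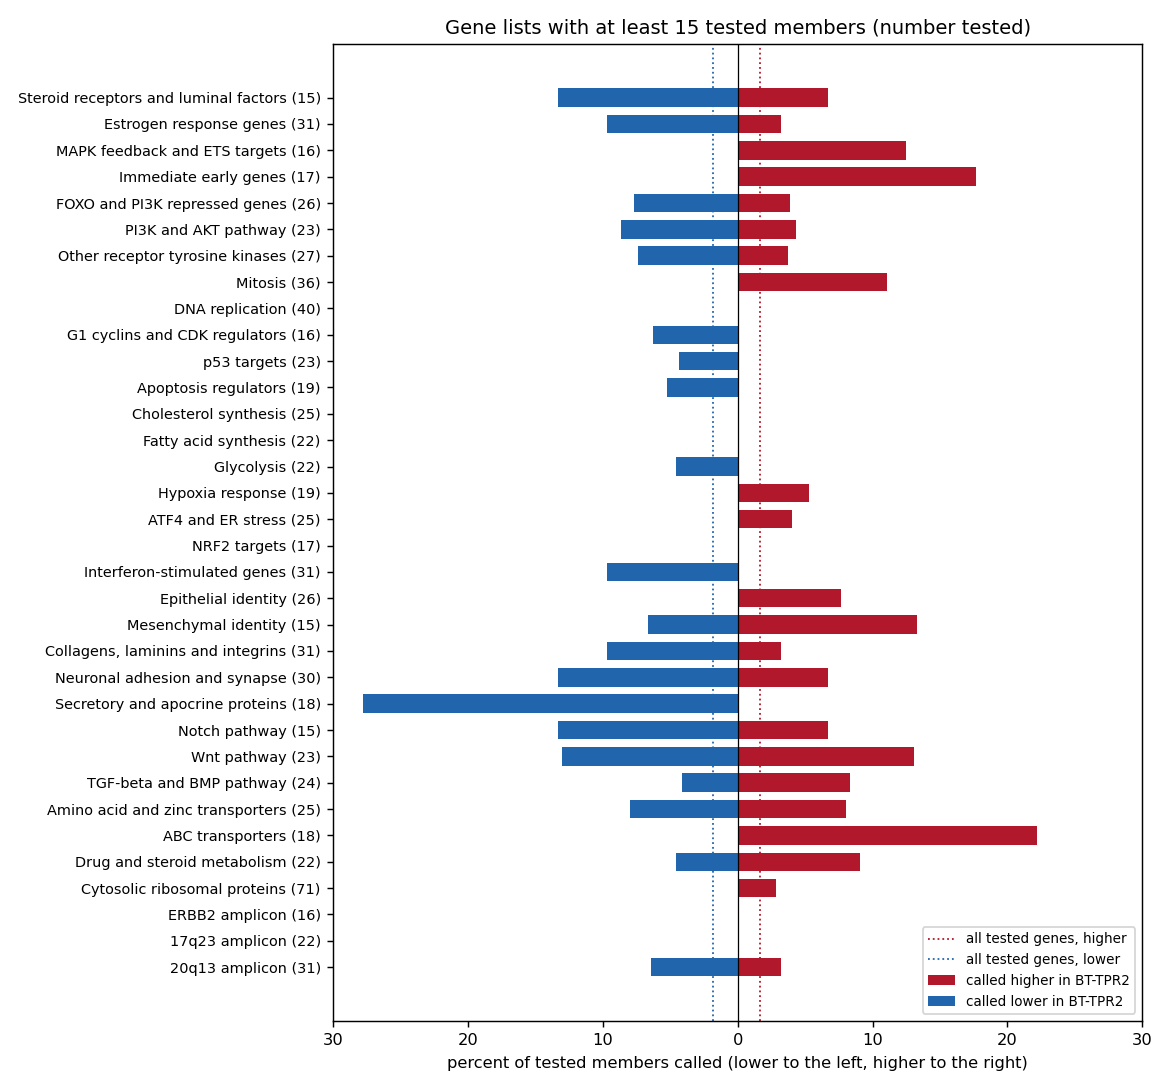
For each gene list with at least 15 tested members (number in brackets), bars give the percent of tested members called higher (red, to the right) or lower (blue, to the left) in BT-TPR2, and dotted lines the shares over all tested genes, 1.64% and 1.81%. Secretory and apocrine proteins reach furthest to the left with 5 of 18 lower, and ABC transporters furthest to the right with 4 of 18 higher; DNA replication and cholesterol synthesis show no bar.

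Over all tested genes, 1.64% were higher and 1.81% lower, and the counts differed between chromosomes. On chromosome 15, 29 of 566 tested genes were higher and 2 lower, with a median log2 fold change of 0.17. On chromosome 9, 21 of 706 were higher and 3 lower (median 0.12). Chromosome 7 had 6 higher and 34 lower of 886 (median -0.14), chromosome 8 had 7 higher and 28 lower of 620 (median -0.083), and chromosome 21 had 1 higher and 10 lower of 189 (median -0.12). Chromosome X had 22 higher and 14 lower of 685 (median 0.049), and chromosome 12 had 19 higher and 12 lower of 974 (median 0.085). All 17 alternatives of the gene test were applied to these counts after seeing the data. The medians kept their sign on chromosomes 15 (0.121 to 0.195), 9 (0.066 to 0.159), 7 (-0.191 to -0.123), 8 (-0.137 to -0.056) and 21 (-0.172 to -0.101). Keeping the sign was not particular to these, since the medians of chromosomes 3, 10, 12 and 18 kept theirs too. The median of chromosome X did not (-0.0055 to 0.0795). CYP1A1, CYP1A2, GRAMD2 and the 4 called mitosis genes belong to chromosome 15, PIP, AZGP1, CDK6 and TWIST1 to chromosome 7, and FBXO32 and DEPTOR to chromosome 8. No DNA copy number was measured in the files used here, and these counts carry no test.

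**Figure D5:**
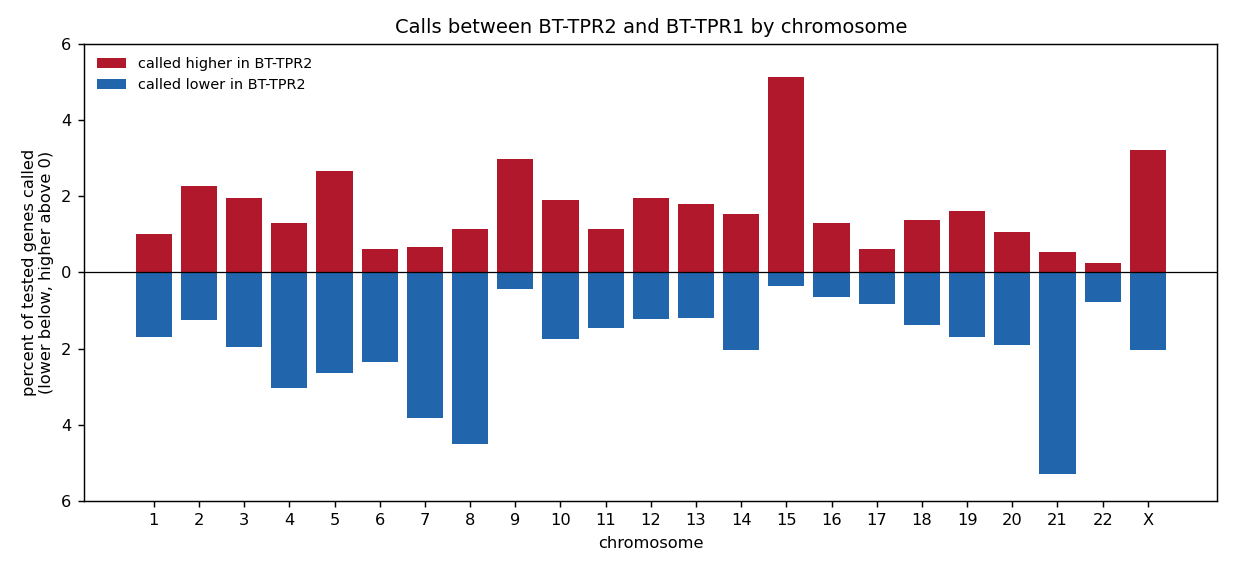
Percent of tested genes on each chromosome called higher (red, above 0) or lower (blue, below 0) in BT-TPR2. Chromosome 15 has the tallest red bar with 29 of 566 genes and chromosome 21 the deepest blue bar with 10 of 189, while chromosomes 7 and 8 extend below 0.

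In windows of 25 consecutive tested genes, the median log2 fold change ran -0.50 to 0.38 over 688 windows. The highest lay at the end of the short arm of chromosome 9 (14521 to 5776557, WASH1 to RIC1, hg38), where 21 of 25 values were positive and 6 genes were higher, among them VLDLR, a lipoprotein receptor (20.99 ± 3.09 CPM in BT-TPR2 and 13.2 ± 1.24 CPM in BT-TPR1, 0.67 ± 0.14, adjusted p = 0.00842), and SLC1A1. Against untreated BT474 the window's median was 0.43 in BT-TPR2 and -0.015 in BT-TPR1. The next highest were on chromosome 15 (92592574 to 100342005, median 0.33), where MCTP2 and SYNM were higher, and on chromosome 19 (57261354 to 57717301, median 0.26), which ranked 9 after the GC correction. The lowest windows were chromosome 19, 18374731 to 19203424 (GDF15 to NR2C2AP, median -0.50), chromosome 21, 44217014 to 45942454 (ICOSLG to PCBP3, median -0.47), and chromosome 19, 4675224 to 6375251 (DPP9 to ALKBH7, median -0.43). In these 3 windows 22, 24 and 23 of 25 values were negative, though only 1, 4 and 0 genes were called lower, and 11, 9 and 8 with the replicate block. Against untreated BT474 their medians were -0.74, -0.63 and -0.41 in BT-TPR2 and -0.18, -0.22 and -0.014 in BT-TPR1. All 6 windows were picked by their medians, so a majority of 1 sign in each follows from that choice. A gap between the pools in their medians against untreated BT474 follows from it as well. With the GC correction the 6 window medians were 0.37, 0.31, 0.23, -0.46, -0.43 and -0.39 in the order given. Of 42 pairs of adjacent tested genes that were both called, 39 moved the same way, among them the secretory pair SCGB1D2 and SCGB2A2, the kallikreins KLK11 and KLK12 (-3.68), and the phosphodiesterase genes ENPP4 (-0.84) and ENPP5. The share of adjacent genes moving the same way among all tested genes was not computed, so the 39 of 42 is a description. Some pairs, such as SOCS2-AS1 and SOCS2, overlap on opposite strands, where reads may not be separable. VLDLR no longer passed without BT-TPR1 replicate 2 (adjusted p = 0.0565) or with only the 2 pools fitted (0.096), over a range of 0.000168 to 0.096.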

How the data were processed

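RNA from 21 libraries was sequenced, of which the 3 of BT-TPR2 and 3 of BT-TPR1 are compared and those of untreated BT474 set beside them. The deposited table holds raw read counts per gene; the submitters' processing notes name Bowtie2, featureCounts, DESeq2 and build hg38, without versions or settings here. The authors also deposited transformed values on a log2 scale, used for 1 alternative in limma. Counts were fitted in edgeR 4.0.16 (R 4.3.3) over all 21 libraries with a term per group: filterByExpr (minimum count 10, total 15), TMM scaling, the quasi-likelihood test and Benjamini-Hochberg adjustment over 17650 genes, called under 0.05. Positions and GC content came from GENCODE 29, promoters from RefSeq. The sample titles number the replicates without saying that equal numbers mark paired libraries. Deviations of same-numbered libraries from their pool means correlated at r = 0.64, 0.37 and 0.40 across genes. Unlike-numbered libraries gave -0.54 to 0.30, the highest for BT-TPR2 replicate 3 with BT-TPR1 replicate 2. Deviations from a shared pool mean depend on each other, so these values cannot settle whether libraries are paired. In all 7 groups the deviation of replicate 1 correlated positively with GC content (r = 0.324 to 0.639) and that of replicate 3 negatively (-0.527 to -0.282). Replicate 1 of BT-TPR1 and replicate 1 of BT-TPR2 correlated at 0.9885 (Spearman), above the values of either with its own pool (0.9811 to 0.9872). The main test has no replicate term, so it counts deviations shared by replicate number as spread, and the block was run as an alternative. Genes were named as the 14 largest rises and 14 largest falls (adjusted p under 0.05, mean of at least 5 CPM, no overlap), 11 genes given whatever their result, and up to 4 called members per list, by size of change; not all are described, and some are not reported here. The members and the 55 lists were chosen with earlier results of these data known. Alternatives used limma 3.58.1, DESeq2 1.42.0, other filters, scalings, samples and terms. Steps were tested on simulated data, which held no replicate or GC effect of the kind seen in these libraries.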

Additional observations from a re-analysis of the deposited data

Results flagged for a closer look

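In 10 of the genes described, the pools moved in opposite directions from untreated BT474, each past an adjusted p of 0.05, and the direct comparison of BT-TPR2 with BT-TPR1, in which both are in the same fit, is the test of that difference. The 2 comparisons with untreated BT474 share its libraries. Of the genes higher in BT-TPR2, EGR3 rose in BT-TPR2 (0.72) and fell in BT-TPR1 (-1.05), a log2 fold change of 1.77 between the pools. ARMCX3 (1.16), GRAMD2 (1.15) and STS (1.02) did likewise. ARMCX3 changed by 0.60 in BT-TPR2 and -0.55 in BT-TPR1 against untreated BT474, and GRAMD2 by 0.77 and -0.37 in the same order. Of the genes lower in BT-TPR2, LGR6 (-2.66) fell by 0.89 in BT-TPR2 and rose by 1.77 in BT-TPR1. The same arrangement held for PIP (-2.04), CYP2B7P (-2.13), GUCY1A3 (-1.81), its neighbour RP11-588K22.2 (-1.81) and ENPP5 (-1.60). The adjusted p of the direct comparison was 0.000321 for EGR3 and lower for the other 9.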

How the results depend on the processing

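All 609 calls were also made with the replicate block, and none of them changed direction under any alternative. The block gave 2119 calls (1032 higher, 1087 lower), the GC correction 1437 (630 higher, 807 lower) and both together 2810 (1308 higher, 1502 lower). With only the 2 pools fitted there were 197 (76 higher, 121 lower), and a fold of at least 2 left 231 (104 higher, 127 lower). Scaling by total counts alone gave 178 higher genes and 461 calls. Leaving out 1 library gave 351 to 457 calls, 145 to 241 higher and 202 to 243 lower. The other alternatives gave 596 to 788 calls, the highest in DESeq2, where 1033 genes had no adjusted p. Over the named genes, 1712 values kept direction and side of the threshold, 226 lost it, 7 gained it and 8 changed sign. Among the genes named by the rule given above, the replicate block changed no other call than those of EGFR and ESR1. Further list members described above, such as TRPS1, PNMT and EGR1, were called with the block alone. The sign changes were ERBB2 at -0.0762 without BT-TPR2 replicate 1 (-0.0762 to 0.359 over the 6 libraries left out), FOXA1 at -0.0266 with scaling by total counts alone, and MKI67 at -0.0201 with that scaling, -0.00335 with the GC correction, -0.00832 with the correction and block and -0.068 to 0.14 over the libraries left out; none of these passed the test, and the cause was not tested.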

Other observations

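Groups not yet described added single calls. BTG2, an antiproliferative p53 target, had 59.2, 55.9 and 63.9 CPM in BT-TPR2, against 94.2, 97.3 and 96.8 CPM in BT-TPR1 and 31.5, 33.1 and 37.8 CPM in untreated BT474 and was the single call of 23 tested p53 targets (-0.69 ± 0.10, adjusted p = 0.000495). Both pools lay above untreated BT474 and BT-TPR2 lay lower of the 2. S100P, a calcium-binding protein of many carcinomas, was the single call of 13 tested S100 genes, with 15.6, 13.9 and 11.8 CPM in BT-TPR2, against 29.3, 24.5 and 23.6 CPM in BT-TPR1 and 2.75, 1.65 and 1.68 CPM in untreated BT474 (-0.91 ± 0.23, adjusted p = 0.0303). STC1, a secreted glycoprotein induced by hypoxia, was the single call of 19 tested hypoxia genes (4.82 ± 1.04 CPM in BT-TPR2 and 2.12 ± 0.321 CPM in BT-TPR1, 1.17 ± 0.25, adjusted p = 0.00931). In the 20q13 amplicon, SULF2, an enzyme that removes sulfate from heparan sulfate, had 28.2, 17.6 and 24.8 CPM in BT-TPR2, against 12.1, 9.75 and 11.02 CPM in BT-TPR1 (1.10 ± 0.18, adjusted p = 0.000949). PREX1, a Rac activator, had 402, 361 and 299 CPM in BT-TPR2, against 762, 563 and 552 CPM in BT-TPR1 (-0.82 ± 0.16, adjusted p = 0.00522), and BCAS1, a gene amplified in breast cancer, had 285, 339.9 and 355 CPM in BT-TPR2, against 442, 526 and 538 CPM in BT-TPR1 (-0.62 ± 0.12, adjusted p = 0.005). These were the 1 higher and 2 lower of 31 tested, and 0 of 22 tested genes of the 17q23 amplicon passed. PREX1 and BCAS1 no longer passed with only the 2 pools fitted, at adjusted p values of 0.0598 for PREX1 (range 1.03e-06 to 0.0598) and 0.0729 for BCAS1 (range 7.41e-08 to 0.0729). S100P no longer passed without BT-TPR2 replicate 2 or 3 or BT-TPR1 replicate 1 or 2 or 3 (adjusted p = 0.0849, 0.15, 0.119, 0.0634 and 0.0555), over a range of 2.05e-07 to 0.15. STC1 no longer passed without BT-TPR2 replicate 3 or BT-TPR1 replicate 2 (adjusted p = 0.0658 and 0.0709) or with only the 2 pools fitted (0.0575), over a range of 0.000212 to 0.0709.

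Of 71 tested cytosolic ribosomal protein genes 58 had a positive log2 fold change, with a median of 0.10, and 2 were higher, against 1.64% of all tested genes, of which RPL12 averaged 111 ± 9.56 CPM in BT-TPR2 and 79.4 ± 6.22 CPM in BT-TPR1 (0.48 ± 0.13, adjusted p = 0.0464). With the replicate block 8 were higher and 1 lower, against 5.85% and 6.16% of all tested genes. These are counts on short genes of which the genome holds many processed copies. The 13 mitochondrially encoded transcripts had a median of 0.19, with 0 calls, and 17 NRF2 targets a median of 0.0066, also with 0 calls. RPL12 no longer passed without BT-TPR2 replicate 1 or 2 or 3 or BT-TPR1 replicate 1 or 2 or 3 (adjusted p = 0.126, 0.136, 0.0539, 0.0685, 0.143 and 0.168), with scaling by total counts alone (0.129) or with only the 2 pools fitted (0.111). For RPL12 the adjusted p ranged from 0.000559 to 0.168 over all alternatives.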
